A study of Homo sapiens with 6 samples.

Results

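The segment described here is the 6 Mb of chromosome 9 from 30 Mb to below 36 Mb (build hg38), on the short arm at 9p13 to 9p21, where peaks of V5-tagged GSE1 lay close together. A peak was a member when its start fell in this range. This gave 876 of the 21401 peaks called in DMSO-treated cells and 715 of the 13233 peaks called in MC2580-treated cells. The range was selected on the measured density of peaks in these lists, so that the density itself is a description and was not tested. The peaks came from anti-V5 chromatin immunoprecipitation and sequencing (ChIP-seq) in NB4, an established cell line of human acute promyelocytic leukaemia. It had been transduced with a lentiviral vector coding for V5-tagged GSE1 (transcript variant 2) or with the empty vector (EV). GSE1 cells received the LSD1 inhibitor MC2580 at 2 µM for 24 h, or the vehicle DMSO for 24 h. The series held 3 V5 ChIP libraries (EV, DMSO and MC2580) and 3 inputs, 1 library in each group, and the data analysed here were 2 peak lists. The tagged protein was expressed from the vector in addition to the cells' own GSE1, and both lists were called against the same EV library.

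GSE1 is a coiled-coil protein found in complexes of LSD1 with the CoREST corepressor and histone deacetylases. LSD1 removes methyl groups from lysine 4 of histone H3, a mark of enhancers and promoters, and in blood cells it is brought to DNA by transcription factors such as GFI1. This part of the short arm holds genes of several unrelated families, among them the RNA sensor RIGI, the chemokines CCL19, CCL21 and CCL27, the lymphoid surface protein CD72 and the ATPase VCP. The stretch below them, between LINGO2 and ACO1, is poor in genes.

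Sequences at the centres of the peaks on which the account turns are shown first, each as 200 bases of the plus strand of hg38 with no annotated exon in the window. Capitals mark matches, on either strand, to the consensus words searched (GAGGAAGT for PU.1, TGTGGTTT for RUNX factors, TGANTCA for AP-1, TTGCNNAA for CEBP factors, AGATAAG for GATA factors and AAATCNC for GFI1). No word contains another. The strongest DMSO peak of the segment lay over NOL6 (window chr9:33464624-33464823). The strongest peaks with no counterpart in the other list lay between AQP7 and AQP3 for DMSO (chr9:33408041-33408240) and over FAM205C for MC2580 (chr9:34890615-34890814).
NOL6, strongest in DMSO: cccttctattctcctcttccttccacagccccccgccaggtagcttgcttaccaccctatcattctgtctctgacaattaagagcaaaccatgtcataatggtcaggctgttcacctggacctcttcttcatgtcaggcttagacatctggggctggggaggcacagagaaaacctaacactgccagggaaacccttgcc
Near AQP7, DMSO list only: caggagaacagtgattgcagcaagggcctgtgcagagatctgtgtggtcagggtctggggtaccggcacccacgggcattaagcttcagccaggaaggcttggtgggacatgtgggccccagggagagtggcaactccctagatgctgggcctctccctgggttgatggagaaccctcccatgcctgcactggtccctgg
FAM205C, MC2580 list only: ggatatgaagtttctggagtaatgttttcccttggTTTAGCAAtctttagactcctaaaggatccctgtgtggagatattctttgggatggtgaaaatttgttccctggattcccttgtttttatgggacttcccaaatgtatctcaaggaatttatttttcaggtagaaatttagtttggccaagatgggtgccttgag

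Further windows show peaks that were listed with DMSO only at promoters and the strongest DMSO peaks of the gene-poor bins. The APTX and DNAJA1 window (chr9:33026269-33026468) is the centre of a peak over the divergent starts of both genes. The PRSS3 window is chr9:33751431-33751630, and the gene-poor windows are chr9:30279146-30279345 and chr9:31153308-31153507.
APTX and DNAJA1, DNAJA1 side, DMSO list only: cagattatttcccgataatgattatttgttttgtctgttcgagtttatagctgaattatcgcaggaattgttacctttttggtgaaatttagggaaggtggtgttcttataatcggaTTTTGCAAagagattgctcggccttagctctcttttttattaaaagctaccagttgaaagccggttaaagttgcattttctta
PRSS3, DMSO list only: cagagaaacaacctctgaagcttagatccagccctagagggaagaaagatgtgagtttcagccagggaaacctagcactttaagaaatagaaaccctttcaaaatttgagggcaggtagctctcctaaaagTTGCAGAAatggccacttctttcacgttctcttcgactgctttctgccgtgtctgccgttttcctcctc
Gene-poor, 30 to 31 Mb: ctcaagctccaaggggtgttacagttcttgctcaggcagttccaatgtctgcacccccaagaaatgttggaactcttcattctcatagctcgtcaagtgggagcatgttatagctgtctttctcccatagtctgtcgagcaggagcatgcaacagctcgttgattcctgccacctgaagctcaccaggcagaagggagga
Gene-poor, 31 to 32 Mb: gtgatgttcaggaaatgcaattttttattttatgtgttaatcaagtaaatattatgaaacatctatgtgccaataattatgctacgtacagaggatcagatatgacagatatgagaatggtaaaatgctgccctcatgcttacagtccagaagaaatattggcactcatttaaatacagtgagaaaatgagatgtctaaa

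The windows differ in composition. The DMSO-only window near AQP7 had a GC content of 61.5%, and the NOL6 window 52%, while the window of the bin from 31 to 32 Mb had 32%. A TTGCNNAA match stood in each of the FAM205C, PRSS3 and APTX and DNAJA1 windows. None of the 6 words was found in the NOL6 and AQP7 windows or in the gene-poor windows. These matches describe the letters of the windows only.

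With DMSO the segment held 146 peaks per Mb, and with MC2580 it held 119 peaks per Mb. For each DMSO peak there were 0.816 MC2580 peaks (95% interval 0.739 to 0.901, counting error only). In the other 1 Mb bins with at least 40 distinct peaks, called dense bins here, this ratio was 0.796 (0.772 to 0.820). In the bins that are not dense it was 0.425 (0.410 to 0.440). The interval for the segment lay above that of the sparse bins and included that of the other dense bins. All 6 of its bins were among the 118 dense bins of the series, of which 28 lie on chromosome 9. Each list came from 1 library of unknown read depth, so that a change in the number of peaks cannot be told apart from a difference in depth or enrichment, and no test between the treatments was made.

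The peaks were not spread evenly over the 6 Mb. The bin from 30 to 31 Mb held 22 DMSO and 21 MC2580 peaks. The bin from 31 to 32 Mb held 42 and 32. From there the numbers went up to 158 and 129 between 32 and 33 Mb, 228 and 201 between 33 and 34 Mb, and 280 and 225 between 34 and 35 Mb, the fullest of the 6 bins in both lists. The bin from 35 to 36 Mb held 146 and 107. The order of the bins by peak number was the same in both lists. Across the 57 bins of 100 kb from 30 to 35.7 Mb, the numbers of DMSO and MC2580 peaks moved together (Pearson's r = 0.919, given as a description, since both lists share a control library and the underlying sequence).

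**Figure D1:**
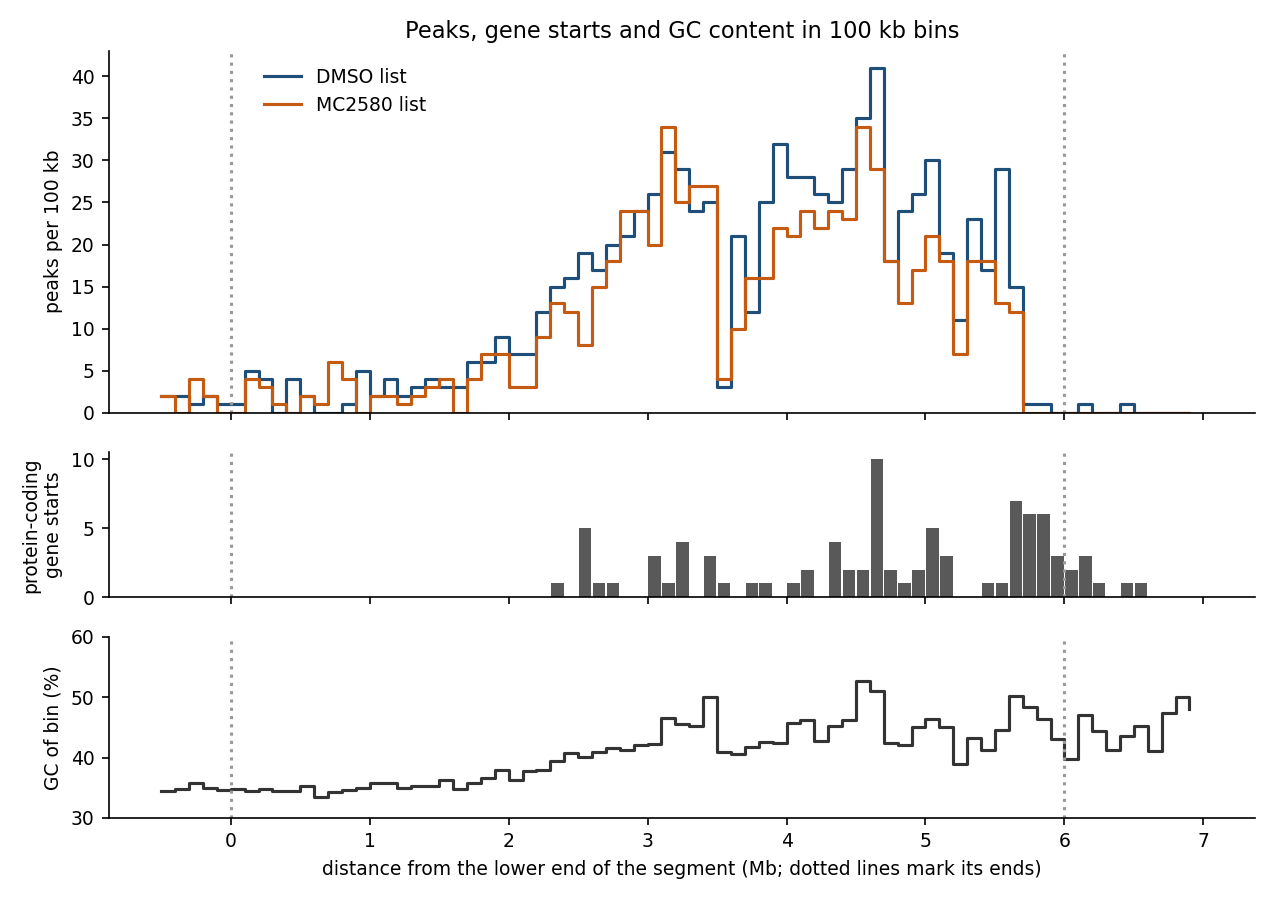
Peaks per 100 kb in the DMSO and MC2580 lists (top), protein-coding gene starts (middle) and GC content in percent (bottom) against the distance in Mb from the lower end of the segment, with 0.5 Mb before it and 1 Mb after it. Both lists are low over the first 2 Mb, high from there to 5.7 Mb with a dip at 3.5 Mb, and near 0 beyond 5.7 Mb although gene starts and GC content go on.

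The first 2 bins were gene-poor, with no start of a protein-coding gene in either, and the other 4 were gene-rich, with 8, 14, 26 and 32 starts. The gene-poor bins held 32 DMSO peaks per Mb and the gene-rich bins 203 per Mb, a ratio of 6.34 (4.92 to 8.18). With MC2580 the densities were 26.5 and 166 per Mb, a ratio of 6.25 (4.73 to 8.25). The ratios were 2.95 and 2.93 when bins with under 10 starts were called gene-poor, 4.15 for DMSO with peaks within 1 kb merged, and 200 for DMSO with scores of at least 100, where 1 gene-poor peak was left. The intervals of the 2 ratios overlapped almost fully. They cover counting error only, with 1 library per treatment, and a difference between the treatments in this contrast was not tested. Yet the gene-poor bins were not empty. Among the 1546 bins elsewhere in the genome with 0 to 4 protein-coding starts the median was 0 DMSO peaks. In that class 38 bins (2.46%) held at least the 22 DMSO peaks of the bin from 30 to 31 Mb, and 28 bins (1.81%) at least the 42 of the next bin. The gene-poor bins just below the range held 29 DMSO peaks (28 to 29 Mb) and 18 (29 to 30 Mb). A high place among like bins follows in part from the choice of the range by density.

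At finer scale, bins without gene starts also held many peaks. Between 32 and 35.7 Mb, the 12 bins of 100 kb without a protein-coding start held a median of 21 DMSO peaks (range 7 to 32) and 15 MC2580 peaks (3 to 27). The 14 bins with 2 or more starts held a median of 26 (15 to 41) and 22 (8 to 34). The ranges overlapped widely. Over the gene-rich bins there were 229 DMSO promoter peaks per Mb of sequence in reach of a start site. The remaining sequence held 189 other peaks per Mb. In reach meant that a peak of the median width centred there would lie within 3 kb of a start site. By bin these densities were 229 and 144 from 32 to 33 Mb, 224 and 231 from 33 to 34 Mb, 333 and 249 from 34 to 35 Mb, and 147 and 145 from 35 to 36 Mb. GC content ran from 34.6% in the first bin to 46.0% in the fifth and 44.8% in the sixth. Over the 57 bins of 100 kb up to 35.7 Mb, DMSO peak number followed GC content (Pearson's r = 0.898) more closely than the number of protein-coding starts (r = 0.553). Over all 60 bins the values were 0.766 and 0.368. These correlations are descriptions across neighbouring bins of the same libraries, and GC content was not separated from gene content.

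Peaks stopped abruptly near the upper end. The last closely spaced DMSO peak lay at chr9:35659155-35660044 (score 56.89), and the next was 67998 bp away at chr9:35728043-35729124 (179.85), within 3 kb of a start site of TLN1, which encodes the integrin-binding protein talin. The last MC2580 peak of the segment lay at chr9:35657083-35658052 (66.04), and the next on the chromosome began 5571304 bp beyond its end. From 34.7 to 35.7 Mb there were 212 DMSO and 155 MC2580 peaks, and from 35.7 to 36.7 Mb there were 4 and 0. GC content was 43.9% in the Mb before and 44% in the Mb after this point, protein-coding starts numbered 22 and 23, and neither side held an unknown base. Starts of long non-coding RNA genes numbered 12 and 4, and 36.1% and 29.9% of the sequence lay within 3 kb of a start site. The lower end had no such step. A smaller gap lay between 33.5 and 33.6 Mb, around ANKRD18B, with 3 DMSO and 4 MC2580 peaks, where the neighbouring 100 kb bins held 25 and 27 below it and 21 and 10 above it. Copy number and mappability of this sequence were not measured here, and their part in these steps was not tested.

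The ends of the range fell in sparse sequence. Just below it, the nearest DMSO peak outside lay at chr9:29900352-29901248 (score 60.27) and the first member at chr9:30048216-30049389 (64.00). At the upper end the last DMSO member lay in an intron of TMEM8B (chr9:35844648-35845737, 306.40), and the first peak outside at chr9:36150702-36152434 (114.75).

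The score of a peak is minus 10 times the log10 of the peak caller's p-value, so that the calling threshold of 1e-05 corresponds to 50. Higher scores can come from more enrichment, a wider peak or a deeper library. The median score of the segment was 94.55 (91.20 to 98.56) for DMSO and 83.64 (80.88 to 86.74) for MC2580. The other dense bins had medians of 89.63 (88.54 to 90.87) and 83.33 (81.99 to 84.43). Scores were 100 or higher for 400 DMSO peaks (45.7%) and for 239 MC2580 peaks (33.4%). The shares in the whole series were close to these, 44.3% and 33.8%. The highest scores were 1473.05 and 349.24, and no peak of the segment had the value of 3100 that 116 DMSO and 86 MC2580 peaks of the whole series share. By bin, the median DMSO score was 59.02 in the bin from 30 to 31 Mb, 76.42 in the next, 86.01 between 32 and 33 Mb, and 109.03 and 109.15 in the fullest bins, before 90.15 in the last. With MC2580 the medians were 68.18, 61.73, 76.08, 85.26, 91.00 and 87.15 in the same order. In the gene-poor bins the DMSO and MC2580 medians were 68.04 (59.25 to 78.79) and 67.57 (57.27 to 81.97). In the gene-rich bins they were 98.81 (94.55 to 102.80) and 85.57 (81.87 to 88.12). These intervals cover counting error over the peaks of a list only. Since scores depend on read depth, which is unknown, a difference between the treatments was not tested.

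**Figure D2:**
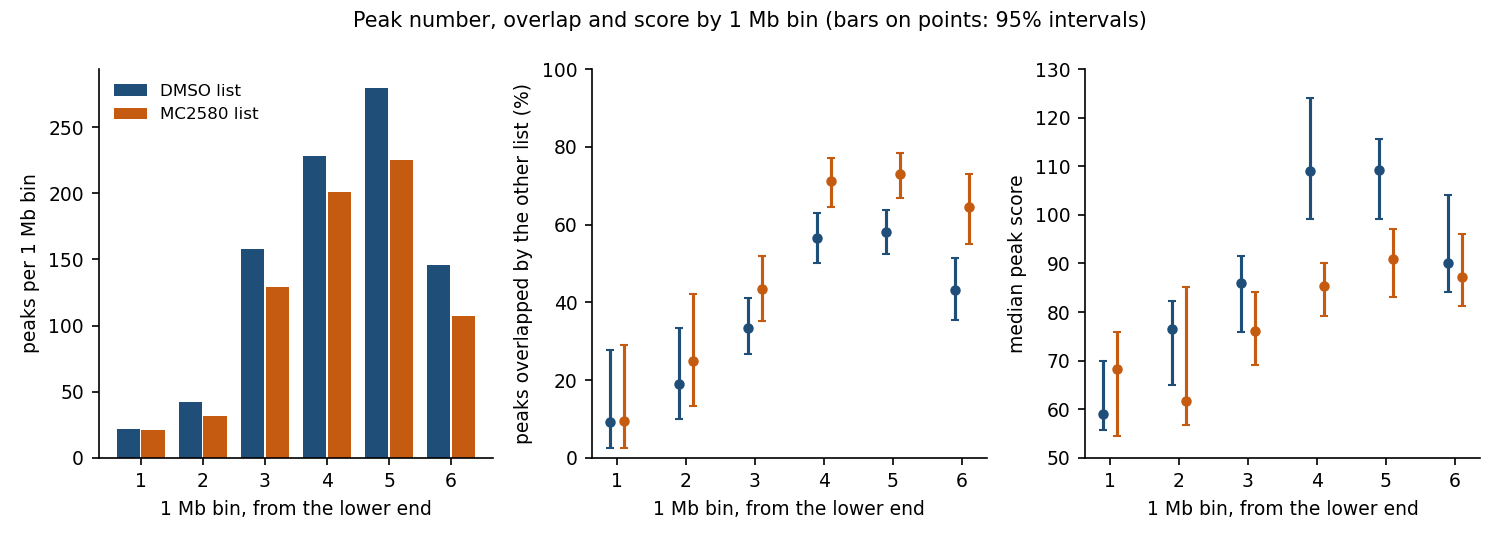
Number of peaks (left), percent of peaks overlapped by at least 1 bp by a peak of the other list (middle) and median peak score (right) in each 1 Mb bin, numbered 1 to 6 from the lower end. Points carry 95% intervals for counting error. Bins 1 and 2 (gene-poor) have the fewest peaks and the least overlap, 9.09% and 19% for DMSO, and bins 4 and 5 the most, 56.6% and 58.2%.

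Overlap between the lists was counted when peaks shared at least 1 bp. In the segment 418 DMSO peaks (47.7%, 44.4 to 51.0) overlapped an MC2580 peak, against 33.6% of all DMSO peaks. Of the MC2580 peaks 442 (61.8%, 58.2 to 65.3) overlapped a DMSO peak, against 58.0% of all MC2580 peaks. The other dense bins had 42.6% (41.7 to 43.6) and 58.8% (57.7 to 59.8). The share depends on how much of the sequence is under peaks. MC2580 peaks covered 1.93% of the bin from 30 to 31 Mb and 27.1% of that from 34 to 35 Mb. In these bins 2 of 22 (9.09%, 2.53 to 27.8) and 163 of 280 (58.2%, 52.4 to 63.8) DMSO peaks were overlapped. Over the gene-poor bins 10 of 64 DMSO peaks (15.6%, 8.71 to 26.4) were overlapped, and over the gene-rich bins 408 of 812 (50.2%, 46.8 to 53.7). The corresponding MC2580 shares were 18.9% (10.6 to 31.4) and 65.3% (61.6 to 68.8). In neither list did the intervals overlap. How much of this follows from density alone was not tested.

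Peaks found in both lists scored higher. Overlapped DMSO peaks had a median score of 118.17 (112.04 to 125.96), against 83.16 (79.62 to 87.33) for those in the DMSO list only. The MC2580 medians were 92.31 (87.62 to 97.23) and 71.57 (67.57 to 76.93). Many unmatched peaks had a near neighbour. The 458 DMSO peaks with no counterpart lay a median of 1922 bp from the nearest MC2580 peak, and the 273 unmatched MC2580 peaks 1385 bp from the nearest DMSO peak. By score class, 25.6% of the DMSO peaks below 60 were overlapped, 37.9% between 80 and 100, 54.0% between 100 and 150, and 80.5% (72.3 to 86.8) at 200 or more. At scores of 60 to 80 the segment share of 34.1% (27.6 to 41.1) was above that of the other dense bins, 24.5% (22.8 to 26.2). The MC2580 shares in that class were 58.5% (50.7 to 65.9) and 45.5% (43.2 to 47.8). In the highest class the order was turned, since the other dense bins had 88.4% (86.7 to 89.8), and the intervals just met. With MC2580, 24 of 30 peaks at 200 or more were overlapped (80%, 62.7 to 90.5), against 98.7% (97.8 to 99.2) in the other dense bins. The 6 exceptions included peaks at FAM205C, FAM219A, APTX and ACO1 and one near ENHO.

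**Figure D3:**
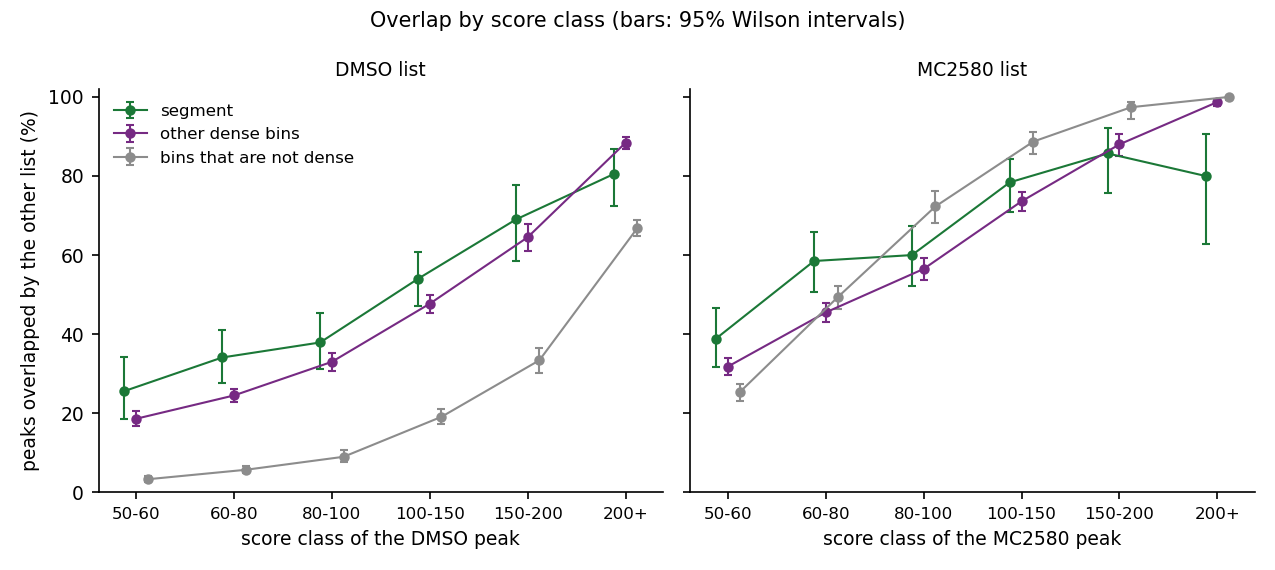
Percent of DMSO peaks (left) and MC2580 peaks (right) overlapped by the other list, by score class of the peak, for the segment, the other dense bins and the bins that are not dense, with 95% Wilson intervals. At 60 to 80 the segment lies above the other dense bins in both lists (34.1% against 24.5%, and 58.5% against 45.5%), and in the highest MC2580 class it lies below them (80% against 98.7%).

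Some strong DMSO peaks lay over several MC2580 peaks. In the segment 62 DMSO peaks overlapped 2 or more MC2580 peaks, with a median width of 2245 bp and a median score of 243.16, while the 356 that overlapped 1 had 1232 bp and 111.30. The widest peak of the segment was the one over NOL6, which encodes a nucleolar protein of ribosomal RNA processing. It spanned 11697 bp (chr9:33458876-33470572) with a DMSO score of 1473.05. Over the same sequence 6 MC2580 peaks were called, the strongest with 191.51. The next DMSO peak, over CD72 and SIT1, a B cell coreceptor and a lymphocyte adaptor, scored 1151.78 (chr9:35645992-35650524), and the strongest MC2580 peak over it 287.12. At AQP3, which encodes a water and glycerol channel, the scores were 1115.61 (chr9:33446014-33449959) and 339.72. An intron of B4GALT1, a galactosyltransferase, had 916.63 and 177.50, and UBAP2, a ubiquitin-associated protein, 784.29 and 218.07. All 5 of the highest DMSO peaks thus had MC2580 counterparts with lower scores. As they were taken for their DMSO score, a lower second value is partly built into the choice.

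The highest MC2580 peaks did not all follow this order. In SPINK4, a gene for a secreted protease inhibitor, a peak at chr9:33233625-33237119 scored 349.24 with MC2580, while the strongest overlapping DMSO peak scored 521.95. A further SPINK4 peak at chr9:33227347-33230865 scored 325.90 with MC2580 and 299.30 with DMSO. Beyond the end of CNTFR, a cytokine receptor subunit, and 2400 bp from it, the MC2580 peak at chr9:34546057-34549032 scored 325.17 and its strongest DMSO counterpart 156.99. At chr9:33926477-33929858 in UBAP2 the values were 309.46 and 127.19. As these peaks were taken for their MC2580 score, a higher MC2580 value is partly built into the choice.

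Scores were compared over 288 pairs in which 1 DMSO and 1 MC2580 peak overlapped only each other. The median ratio of the MC2580 to the DMSO score was 0.774 (0.740 to 0.858). In the other dense bins it was 0.791 (0.771 to 0.817), and in the bins that are not dense 0.421 (0.408 to 0.434). The MC2580 score was lower in 188 pairs (65.3%, 59.6 to 70.5), where 76.7% of all pairs in the series were lower. A ratio of at most 0.5 was found in 55 pairs (19.1%, against 37.4% of all pairs), and a ratio of at least 2 in 11 pairs (3.82%, against 2.61%). The share at or under 0.5 was 21.8% in the other dense bins. The ratio fell with the DMSO score, from a median of 1.48 over the 24 pairs with a DMSO score below 60, to 0.943 over the 55 from 80 to 100, and to 0.399 over the 49 at 200 or more, all of which were lower with MC2580. Since no listed score can be under 50, low DMSO scores can hardly be followed by lower ones, and this trend is given as a description.

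**Figure D4:**
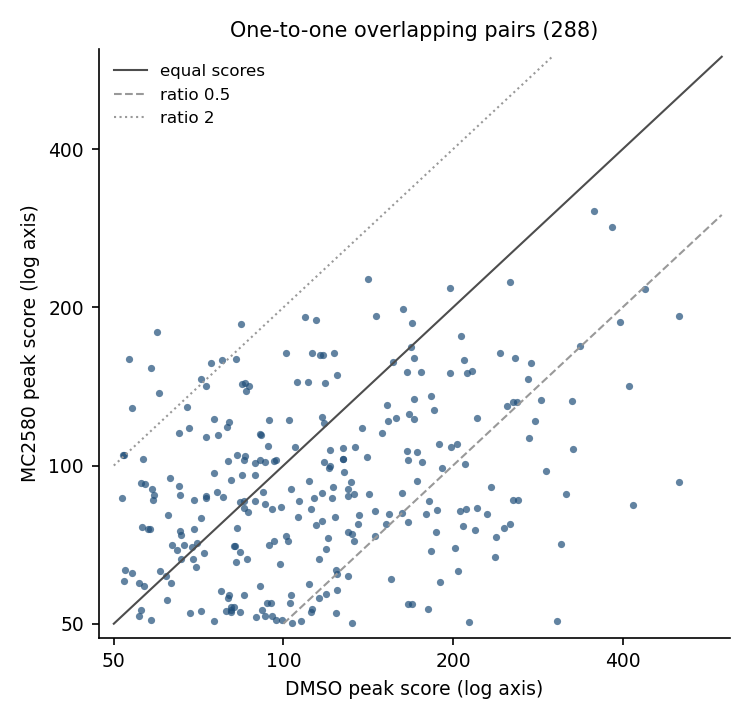
Score of the MC2580 peak against that of the DMSO peak, both on log axes, for the 288 pairs that overlapped only each other. Lines mark equal scores and ratios of 0.5 and 2. Of the pairs, 188 lie under the line of equal scores, and all 49 with a DMSO score of 200 or more do.

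The lowest ratio belonged to the UBAP2 intron (chr9:34041982-34044951), where 305.70 with DMSO stood against 50.64 with MC2580 (ratio 0.166). An intergenic peak 16827 bp from B4GALT1 (chr9:33184183-33188680), had 504.41 and 93.06 (0.184). An exonic peak of SMU1, a splicing factor, had 418.15 and 83.96 (0.201). The highest ratio was at chr9:35134320-35135146, between ATOSB and UNC13B, with 59.57 and 179.79 (3.02). An intron of FAM219A had 53.29 and 159.28 (2.99), and a peak 13389 bp from PHF24 had 58.14 and 153.03 (2.63). In the gene-poor bins, where only 10 pairs were found, the median ratio was 1.03 and 5 pairs were lower.

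By annotation, 330 DMSO peaks (37.7%, 34.5 to 40.9) and 256 MC2580 peaks (35.8%, 32.4 to 39.4) lay within 3 kb of an annotated start site of any gene type, and were called promoter peaks. Of the DMSO peaks 83 lay in exons, 227 in introns and 236 between genes. Of the MC2580 peaks 87, 187 and 185 did. In the other dense bins the promoter shares were 32.4% (31.5 to 33.3) and 31.2% (30.2 to 32.3). In the bins that are not dense they were 38.6% (37.6 to 39.5) and 31.7% (30.3 to 33.1). The segment share lay between these for DMSO and above both for MC2580. Of all DMSO peaks in the series 35.2% were promoter peaks, a share inside the DMSO interval of the segment. Promoter peaks were overlapped more often than intergenic ones, 54.5% (49.2 to 59.8) against 36.9% (31 to 43.2) for DMSO and 73.0% (67.3 to 78.1) against 46.5% (39.4 to 53.7) for MC2580. Exon peaks had 65.1% (54.3 to 74.4) and 67.8% (57.4 to 76.7). The order of promoter and intergenic peaks was the same in the other dense bins. There the shares were 45.9% (44.2 to 47.7) and 41.5% (39.5 to 43.6) for DMSO. For MC2580 they were 65.5% (63.6 to 67.4) and 56.5% (54.2 to 58.7). In the whole series the promoter and intergenic shares were 33.3% and 34.4% for DMSO and 64.5% and 55.4% for MC2580. In the gene-poor bins 55 of 64 DMSO and 48 of 53 MC2580 peaks lay between genes.

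The strongest DMSO peaks of the gene-poor bins were at chr9:30278707-30279784 (86.96), 279697 bp from the nearest start site of any kind and 1065106 bp from LINGO2, and at chr9:31152814-31154002 (104.90), 1230601 bp from ACO1. Neither had an MC2580 counterpart. The strongest MC2580 peaks there were at chr9:30799205-30800744 (118.92), next to the processed pseudogene KRT18P36, and at chr9:31980702-31982159 (124.07), and neither had a DMSO counterpart. Of the 3 strongest DMSO peaks in each of these bins, only that at chr9:30159900-30160915 (85.62) was overlapped, by an MC2580 peak of 104.49.

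The segment held the starts of 80 protein-coding genes in the GENCODE annotation. A DMSO peak lay within 3 kb of an annotated start site of 62 of them (77.5%), against 16.1% of all protein-coding genes. An MC2580 peak did so for 61 (76.2%), against 7.87%. Both lists had one for 59 genes, against 6.39% of all genes, and DMSO alone for 3 (RIGI, ARHGEF39 and TLN1), against 9.75% of all genes. MC2580 alone had one for 2 (NDUFB6 and TAF1L), and neither list for 16. Of all genes 7.87% had an MC2580 promoter peak and 6.39% one in both lists. A peak with MC2580 alone was thus rare among all genes too, and most genes had none in either list. These counts have to be read with the density, since 81.0% of all sequence between 32 and 35.7 Mb lay within 3 kb of a DMSO peak and 71.5% within 3 kb of an MC2580 peak. Neighbouring genes share peaks, and the strongest promoter peaks of the 62 and 61 genes were 50 and 55 distinct peaks. Below 35.7 Mb, 61 of 65 genes had a promoter peak in each list. Above it 1 of 15 had one with DMSO and 0 of 15 with MC2580. The 16 genes with none included the carbonic anhydrase CA9, the tropomyosin TPM2, the transcription factor CREB3, the glucosylceramidase GBA2 and the olfactory receptors OR13J1 and OR2S2. Over the 59 genes the ratio of the highest MC2580 to the highest DMSO promoter score had a median of 0.620, and 50 genes had the lower score with MC2580. Of the 1281 protein-coding genes with a promoter peak in both lists anywhere, 84.7% had the lower score with MC2580, the share also found here, and the median ratio was 0.513. The ratio ran from 0.130 at NOL6 to 1.61 at ACO1. Each score was the highest near any start site of the gene. The 2 scores of a gene can thus belong to different peaks that do not overlap.

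**Figure D5:**
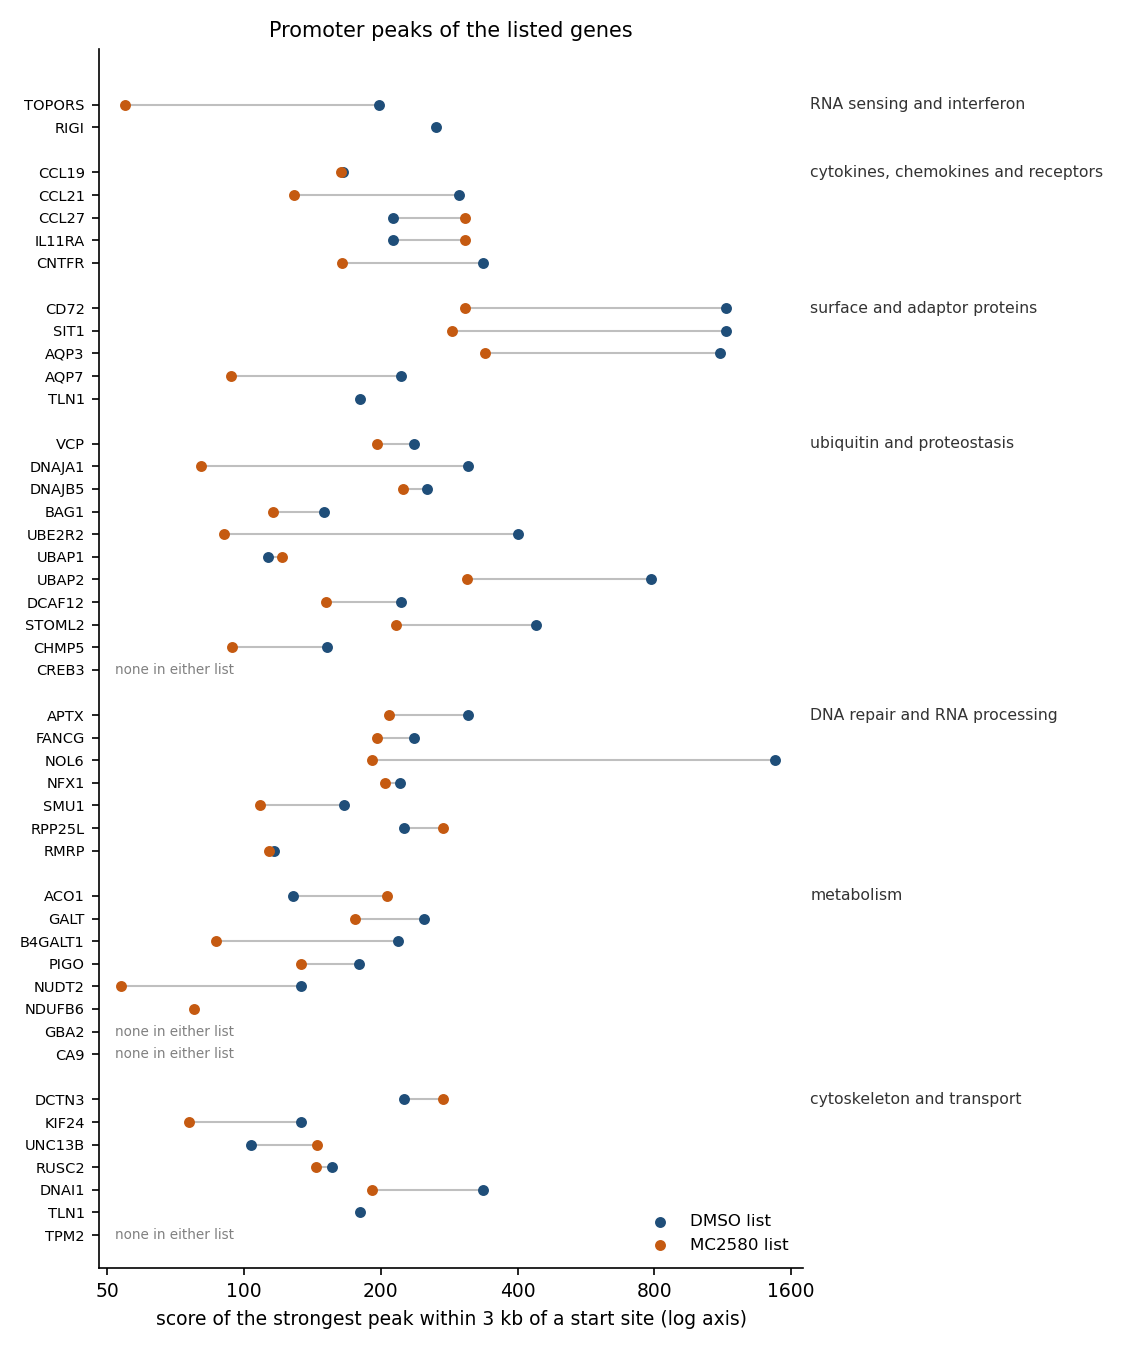
Score of the strongest peak within 3 kb of any annotated start site for the listed genes but 1, in groups, on a log axis, in the DMSO and MC2580 lists. Most DMSO points lie to the right of the MC2580 points, the genes with the reverse order include CCL27, IL11RA, RPP25L, DCTN3, ACO1 and UNC13B, and RIGI and TLN1 have a DMSO point only.

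RIGI, the cytosolic sensor of viral RNA that starts the interferon response, had 4 DMSO peaks within 3 kb of its start sites. The strongest lay over the start (chr9:32523336-32526896) and scored 264.54. No MC2580 peak was listed within this distance, and the nearest lay 4138 bp from a start site. The gene body held 9 DMSO and 8 MC2580 peaks, so that both lists had peaks along the gene. TOPORS, a ubiquitin and SUMO ligase, had 198.03 with DMSO and 54.75 with MC2580, in peaks that did not overlap. Its strongest DMSO promoter peak was also that of SMIM27 and of the overlapping gene ENSG00000288684, and cannot be assigned to one of them.

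Of the 65 genes below 35.7 Mb 59 had promoter peaks in both lists, and the counts of the gene lists are to be read against this share. All 5 genes of the cytokine and chemokine list, which lie there, had promoter peaks in both lists. CCL19, a ligand of CCR7, had 164.77 with DMSO and 163.49 with MC2580, in peaks that did not overlap. CCL21, the other CCR7 ligand, had 297.17 and 128.84. CCL27 and IL11RA, the interleukin 11 receptor chain, are neighbours and shared their strongest promoter peaks, with 212.35 and 305.83. The DMSO and MC2580 peaks did not overlap each other. CNTFR had 335.21 and 164.11, also in peaks that did not overlap. The scores in this list were thus higher with DMSO for 3 genes and with MC2580 for 2.

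Of the 12 genes of the ubiquitin and protein folding list, 11 had a promoter peak in both lists. CREB3, which lies above 35.7 Mb where 14 of 15 genes had none, had one in neither. UBE2R2, a ubiquitin-conjugating enzyme, had 401.32 and 90.32. DNAJA1, a heat shock cochaperone, had 311.47 and 80.38, in peaks that did not overlap. The DMSO peak at this start, which DNAJA1 shares with the DNA repair gene APTX (chr9:33024904-33027834), was among the 5 strongest with no MC2580 counterpart, although an MC2580 peak lay 185 bp away. STOML2, a mitochondrial scaffold protein, had 439.06 and 216.36, and DNAJB5 had 252.53 and 223.23. VCP had 236.90 and 195.92, in peaks that did not overlap. UBAP1 had 113.03 and 120.98, from peaks far apart (chr9:34216945-34217837 with DMSO and chr9:34176787-34178192 with MC2580).

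All 7 genes of the DNA repair and RNA processing list, also below 35.7 Mb, had promoter peaks in both lists. FANCG, of the Fanconi anaemia pathway, shared the strongest promoter peaks of VCP. NFX1, a zinc finger protein, had 220.61 with DMSO (chr9:33289911-33291264) and 203.77 with MC2580 at another place (chr9:33345664-33347216). The MC2580 peak that overlapped this DMSO peak scored 123.13. SMU1 had 165.66 and 108.37. RPP25L, related to a ribonuclease P subunit, had 225.17 and 273.50, a peak it shared with the dynactin subunit DCTN3. RMRP, the RNA of ribonuclease MRP, had 116.62 and 113.14. In the metabolism list 5 of 8 genes had peaks in both lists. ACO1, the cytosolic aconitase that also binds iron-responsive RNA elements, had 127.86 with DMSO and 205.77 with MC2580, at different positions. NDUFB6, a subunit of respiratory complex I, had an MC2580 promoter peak only, with 77.47. Of the 7 genes of the cytoskeleton and transport list, 5 had peaks in both lists. Among them UNC13B, a vesicle priming protein, had 103.64 and 144.64, in peaks that did not overlap.

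The strongest peaks of a single list were found near starts and away from them. After the peak between AQP7 and AQP3 (chr9:33407091-33409191, DMSO score 404.18), which lay 1103 bp from the nearest MC2580 peak, came PRSS3, a trypsinogen gene (chr9:33749978-33753083, 392.83), the APTX and DNAJA1 start (311.47), the TMEM8B intron (306.40) and UBAP2 (chr9:33970083-33973086, 290.97). The TMEM8B peak was 186595 bp from the nearest MC2580 peak, while the UBAP2 peak was 172 bp from it. With MC2580 only, the strongest were at FAM205C (chr9:34889417-34892013, 250.32), FAM219A (chr9:34440891-34442945, 223.93), 10283 bp from ENHO (chr9:34533273-34535347, 221.05), APTX (chr9:33001642-33003809, 208.14) and ACO1 (chr9:32385645-32388133, 205.77). Each of these 5 lay within 1 kb of a DMSO peak, at distances of 114 to 959 bp.

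The 200 bp at the centres of the peaks were compared with windows 2000 bp to each side. Their median GC content was 48% in both lists, against 43.5% in the side windows of the DMSO peaks and 44.5% in those of the MC2580 peaks. The PU.1 word GAGGAAGT stood in 16 of 876 DMSO centres (1.83%, 1.13 to 2.95) and in 0.514% (0.270 to 0.973) of the side windows. The RUNX word TGTGGTTT stood in 1.26% (0.703 to 2.23) of the centres and 1.83% (1.30 to 2.57) of the side windows of the segment. Over chromosomes 1 to 22, X and Y it stood in 4.65% (4.38 to 4.95) of the DMSO centres and 1.56% (1.45 to 1.68) of the side windows. The AP-1 word TGANTCA showed the same contrast, with 4.91% (3.66 to 6.55) of centres and 6.11% (5.08 to 7.33) of side windows in the segment, and 9.32% (8.93 to 9.72) and 5.96% (5.74 to 6.19) over the genome. The CEBP word stood in 9.70% (7.92 to 11.8) of the DMSO centres and 8.39% (7.18 to 9.78) of the side windows, and over the genome in 14.1% (13.6 to 14.5) of the centres and 9.14% (8.87 to 9.42) of the side windows. In the segment the GATA word stood in 3.08% of the centres and 2.85% of the side windows, and the GFI1 word in 10.2% and 8.68%. For CEBP, GATA and GFI1 the intervals of centres and side windows overlapped there. For MC2580 peaks of the segment none of the 6 words had intervals for centres and side windows that lay apart. The RUNX, AP-1 and CEBP words were thus less frequent at DMSO centres of the segment than at DMSO centres genome-wide, by intervals that did not meet. Their intervals at the segment centres overlapped those 2000 bp away. The GATA and GFI1 words stood in 3.30% and 10.6% of the DMSO centres genome-wide, close to their shares in the segment. Words were not counted in the other dense bins alone, so that these contrasts cannot be called particular to the segment. Side windows can lie under neighbouring peaks, which stand close together here.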

How the data were processed

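Anti-V5 ChIP-seq peak lists of NB4 cells were each assigned to a treatment by the list's name. As the study's methods state, reads were aligned by the authors to hg38 with Bowtie (4.8.2 in the submitters' processing notes), keeping unique matches, and they ran the peak caller MACS with a p-value limit of 1e-05 against the respective input and the EV ChIP. How the backgrounds were combined is not given in the sources used here. The score was deposited by the authors per peak, with no replicates and unknown depth. EV and inputs were not analysed beyond this background.

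Positions are in hg38, counted from 1, and genes from GENCODE 44. Promoter meant within 3 kb of any annotated start site, gene-poor under 5 protein-coding starts per Mb bin, overlap at least 1 bp. Intervals are 95% (Wilson for shares, order statistics for medians) and cover counting error only. For ratios of counts, Wilson limits of the share of 1 count in the sum of both were turned into odds. For ratios of densities these were scaled by length. Windows overlapping an exon are not printed, and a few listed items are not reported here. Named are the listed gene groups, the 5 strongest peaks of each list and of each list alone, the 3 strongest per gene-poor bin, the 3 lowest and highest pairs, the widest peak and the edges. The members and lists were chosen with earlier results of these data known. The end of the dense stretch at 35.7 Mb (the last 100 kb bin with at least 5 DMSO peaks) and the dense-bin comparison were chosen after seeing the data. Functions (Python 3.11.15, pandas 2.3.3, statsmodels 0.14.6, pysam 0.24.0) were tested on simulated data.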

Additional observations from a re-analysis of the deposited data

How the results depend on the processing

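No paired analysis was possible because each treatment had 1 library, and no replicate could be left out. Of 88 alternative values for 12 results, 58 stayed within limits, that is within 1.5 times for a count and within the 95% interval for other values, and 30 did not. None changed direction. With a score of at least 100, the segment held 400 DMSO and 239 MC2580 peaks, their ratio was 0.598, 35.8% of DMSO peaks were overlapped, promoter shares were 47.2% and 44.8%, medians 151 and 139, and the gene-rich to gene-poor ratios 200 (35.2 to 1132, resting on 1 gene-poor peak) for DMSO and 14.4 for MC2580. With peaks within 1 kb merged, there were 576 DMSO regions, a ratio of 0.906 (0.805 to 1.02), median scores of 99.7 and 88.3, and gene-rich to gene-poor ratios of 4.15 and 4.62. Overlap depended on its definition: it was 27.4% of DMSO and 33.6% of MC2580 peaks when 50% of both peaks had to be shared, 41.1% and 53.8% with 50% of the shorter peak, and 64.5% and 78.0% with a peak of the other list within 1 kb. Promoter shares fell to 21.6% and 20.6% with promoters within 1 kb, and to 18.2% and 17.6% with protein-coding start sites only. The gene-rich to gene-poor ratios were 2.95 and 2.93 with bins under 10 starts called gene-poor, and 4.42 and 4.68 with bins shifted by 500 kb. Leaving out the sequence above 35.7 Mb, chosen after seeing the data, moved none of the 12 results past these limits. The ratio of peak numbers thus moved with the score limit and with merging, and the DMSO overlap with the score limit, while merging left the overlap shares at 50% and 61.1%. Without read depth neither can be corrected.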
